A study of Mus musculus with 9 samples.

Results

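Elastic fibres consist of an elastin core laid on a scaffold of fibrillin microfibrils, and they give the dermis its recoil after stretching. Fibulins, EMILINs, latent TGF-beta binding proteins and lysyl oxidases help to assemble the fibre, and fibroblasts are its main source in skin. The 10 genes reported here are the table entries with the symbols Eln, Fbn1, Fbn2, Fbln1, Fbln2, Fbln5, Efemp2, Mfap2, Mfap4 and Mfap5. They are 10 of the 29205 genes in the table, and each symbol matched a single entry. Eln encodes elastin. Fbn1 and Fbn2 encode the fibrillins, the main proteins of the microfibril. Fbln1, Fbln2, Fbln5 and Efemp2 encode fibulins, which bind elastin or fibrillin, and Mfap2, Mfap4 and Mfap5 encode proteins that sit along microfibrils.

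The libraries were made from back skin of male BALB/c mice aged 6 to 8 weeks, with 3 libraries in each of 3 groups. All backs were shaved and depilated. The control group received no cream, the IMQ group received 62.5 mg of 5% imiquimod cream daily on 5 consecutive days, and the LYS-High group received the same cream and Longkui Yinxiao soup (LYS), a traditional Chinese medicine formula. The paper's methods give LYS by gavage at its high dose, and the labels give no dose. Skin was collected on day 13. The summed counts were 18123424, 19609878 and 17149506 for control. They were 17988104, 17005853 and 16915191 for IMQ, and 14658645, 16743869 and 15877301 for LYS-High. Levels are given as CPM (counts scaled to a common library total after TMM, which adjusts each total for its composition) and as FPKM (the same kind of value per kilobase of gene length, on the plain total). Values are listed in the order of replicates 1, 2 and 3, and ± marks the SD. The labels do not say that replicate numbers of different groups pair the libraries, and the main fits did not pair them.

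A gene was counted as changed when its edgeR adjusted p (adjusted over all tested genes by the Benjamini-Hochberg method) was under 0.05 and its absolute log2 fold change was over 0.58. Each comparison was fitted on its own 6 libraries. The p-values measure only the spread between these libraries, because the labels do not say that each library came from a separate mouse. The IMQ libraries enter both the comparison with the control group and the comparison with the LYS-High group, so members' values in these comparisons are given side by side and are not independent.

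Together the 10 members took 0.179%, 0.177% and 0.173% of all counts in the control libraries. In the IMQ libraries the members' share was 0.0622%, 0.0325% and 0.0203%, and in the LYS-High libraries it was 0.0763%, 0.116% and 0.160%. All IMQ shares of the members were below all control shares. The members' share in LYS-High replicate 1 was the lowest of its group and still above the highest IMQ share. The members' summed FPKM was 328, 355 and 337 in the control group, 132, 65.7 and 46.0 in the IMQ group, and 142, 233 and 336 in the LYS-High group.

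Levels of different members were compared in FPKM. In the control group Mfap4 had the highest mean (79.3 ± 6.98), and it was above every other member in 3 of 3 libraries. Fbn1 (56.0 ± 4.33) and Mfap2 (53.4 ± 6.82) came next with overlapping ranges, and Fbn1 was the higher of the pair in 1 of 3 control libraries. Fbln2 (42.3 ± 3.62) was above Mfap5 (32.7 ± 4.67) in 3 of 3 control libraries, and Mfap5 was above Eln (26.5 ± 3.19) in 3 of 3. The remaining fibulins had lower control means, with Fbln1 at 18.7 ± 1.99, Efemp2 at 15.3 ± 1.80 and Fbln5 at 13.0 ± 1.17. Fbn2 was the lowest member in every group, at 2.66 ± 0.600 FPKM in the control group.

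The order of the members differed between groups. In the IMQ group Mfap4 (18.6 ± 12.9) and Fbln2 (15.5 ± 10.1) had the highest means, and Mfap4 was above Fbln2 in 3 of 3 libraries. Fbn1, the second member by control mean, was the sixth in the IMQ group at 5.53 ± 3.93 FPKM. Mfap5 had a mean of 3.04 ± 0.304 FPKM there and Fbn2 a mean of 0.1003 ± 0.0779. In the LYS-High group Fbln2 had the highest mean (54.1 ± 19.1), followed by Mfap4 (45.4 ± 29.7) and Mfap2 (32.1 ± 16.2), with overlapping ranges. Fbn1 was again the sixth member by mean in the LYS-High group (18.8 ± 6.04). Fbn2 stayed at the bottom of the LYS-High order at 0.261 ± 0.0445 FPKM.

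**Figure D1:**
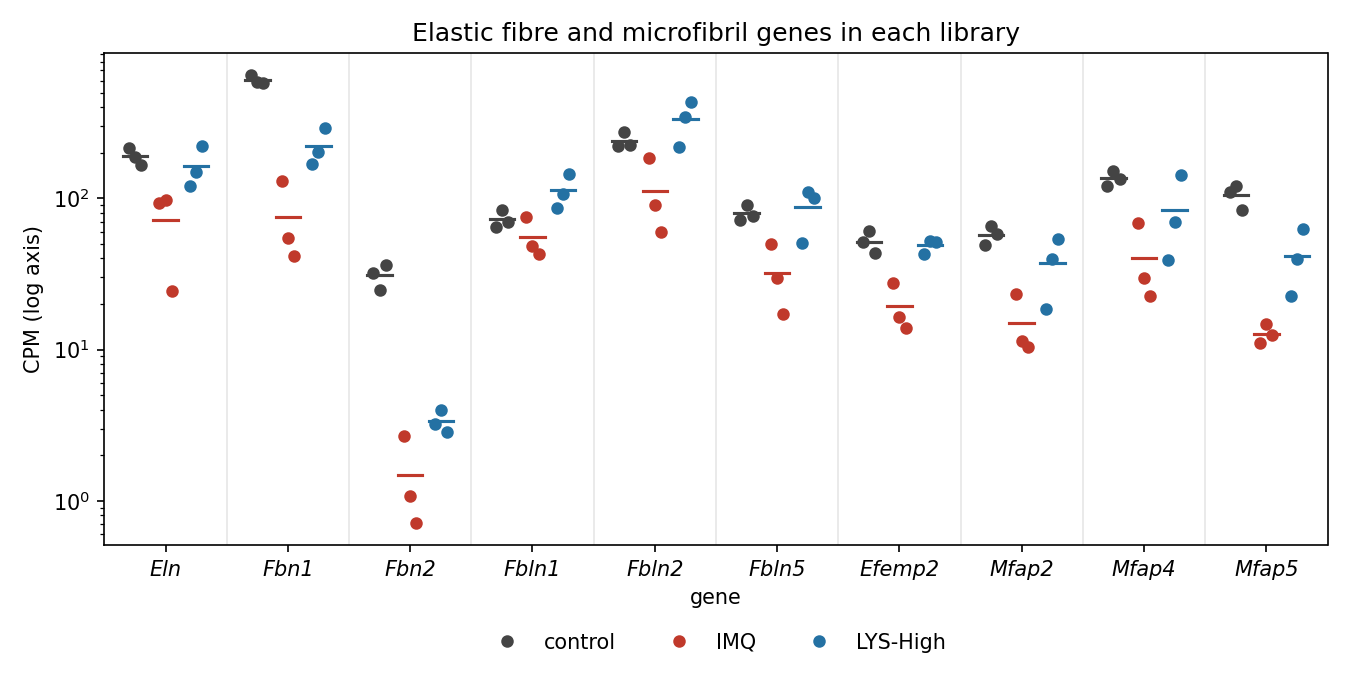
CPM of each member in each library on a log axis, with the control, IMQ and LYS-High groups in separate colours and a bar at the group mean. Fbn1, Fbn2 and Mfap5 show LYS-High points between the IMQ and control points, without overlap with either group.

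Between the IMQ and control groups, 9 of the 10 members fell past the test. All 10 members had a negative log2 fold change, with a median of -1.52 against -0.06 for all tested genes. Among all 15976 tested genes, 8145 (51.0%) changed, and 4291 (26.9%) were lower. By the values of single libraries, the groups did not overlap for 9 of 10 members, with every IMQ value below every control value. The same lower non-overlap held for 38.9% of all tested genes. Fbln1 was the member that did not pass and whose groups overlapped.

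The scaling of the libraries moved the level of all genes together. With library totals only, the median log2 fold change of all genes between IMQ and control was -0.51 in place of -0.06, and 2390 genes were higher and 6854 lower in place of 3854 and 4291. Relative to these medians the members kept nearly the same values, for example -2.87 and -2.83 for Fbn1. Eln lay at -1.29 relative to the TMM median and at -1.27 relative to the median with library totals. Mfap5 gave -2.92 relative to either median. In the LYS-High against IMQ comparison the median of all genes was 0.04 with TMM and 0.29 with library totals. Relative to them Mfap5 lay at 1.68 and 1.70. In the LYS-High against control comparison the medians of all genes were -0.01 and -0.15, and Fbn1 lay at -1.44 and -1.43 relative to them.

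Between the LYS-High and IMQ groups, 0 of 15460 tested genes (0.00%) passed, and so 0 of the 10 members passed. The smallest edgeR adjusted p in this comparison was 0.0591, and 5435 genes had an unadjusted p under 0.05 in edgeR. All 10 members had a positive log2 fold change, with a median of 1.33 against 0.04 for all tested genes. For 8 of the 10 members every LYS-High value lay above every IMQ value, which held for 19.2% of all tested genes. Mfap2 and Mfap4 were the members with overlapping groups.

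The number of members past the thresholds in the LYS-High against IMQ comparison depended on the tool and on the libraries. DESeq2 on the same 6 libraries called 3392 genes, among them 7 members, all higher, while 12.8% of all tested genes were called higher. The 7 members were Fbn1, Fbln1, Fbln2, Fbln5, Efemp2, Mfap2 and Mfap5. An edgeR fit of all 9 libraries together passed the same 7 members, against 9.93% of all tested genes called higher. Without the low-count filter these 7 members passed again, against 5.30%. Leaving out LYS-High replicate 1 gave the same 7 members among 4262 genes, with 14.9% of all tested genes called higher. Leaving out IMQ replicate 1 gave 6 members among 1873 genes (6.80% called higher): Fbn1, Fbn2, Fbln1, Fbln2, Fbln5 and Efemp2. DESeq2 with all 9 libraries called 9 members, all except Mfap4, against 14.2% of all tested genes called higher.

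Between the LYS-High and control groups, 4 of the 10 members passed, 3 of them lower and 1 higher. Of 16003 tested genes 4476 (28.0%) changed, with 2064 (12.9%) lower and 2412 (15.1%) higher. The lower members were Fbn1, Fbn2 and Mfap5, and the higher member was Fbln1. The median log2 fold change of the members was -0.42 against -0.01 for all tested genes. Groups did not overlap for these 4 members, while 25.5% of all tested genes were lower and 25.0% higher without overlap. The other 6 members had overlapping LYS-High and control values.

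**Figure D2:**
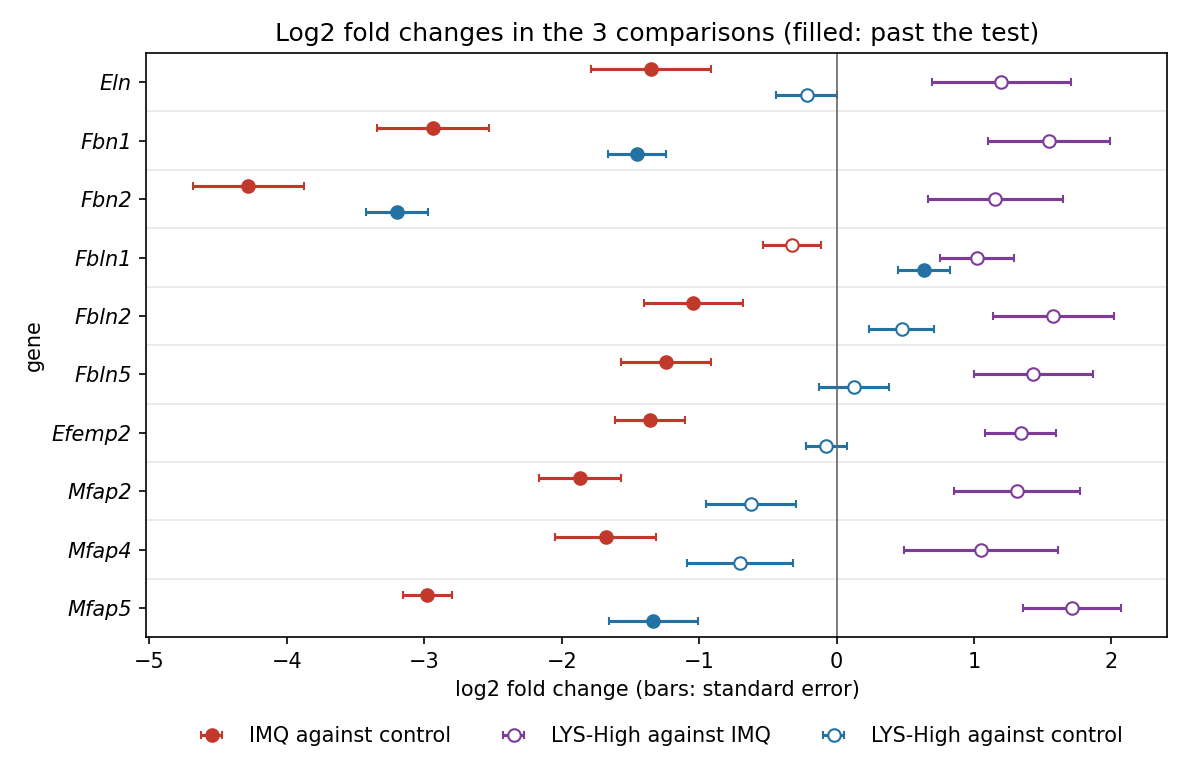
Log2 fold change of each member in the 3 comparisons, with bars of 1 standard error and filled points for members past the edgeR test. The LYS-High against IMQ points are all open and right of 0, and the points against control are filled for Fbn1, Fbn2 and Mfap5 in both the IMQ and LYS-High groups.

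Eln forms the core of the fibre. Its CPM was 216, 188 and 167 in control libraries, 93.5, 96.8 and 24.3 in IMQ libraries, and 120.4, 149 and 223 in LYS-High libraries. Every IMQ value of Eln lay below every control and LYS-High value, with IMQ replicate 3 far below its group, while the LYS-High values spanned the whole control range. The group means of Eln were 191 ± 24.6, 71.5 ± 40.9 and 164 ± 53.1. Between IMQ and control Eln fell (log2 fold change -1.35, standard error 0.44, edgeR adjusted p = 0.0279). That call was lost without control replicate 1 (edgeR adjusted p = 0.0795) and without control replicate 2 (edgeR adjusted p = 0.0601). Between LYS-High and IMQ Eln was at 1.20 (log2, standard error 0.51, edgeR adjusted p = 0.141). With 1 library left out this Eln value ranged from 0.787 to 1.48. Against the control group Eln in LYS-High was at -0.22 (standard error 0.22, edgeR adjusted p = 0.488), and from -0.474 to -0.0393 with 1 library left out.

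Fbn1 is the main fibrillin of adult tissue. Its CPM was 649, 583 and 575 in control libraries, 129.8, 54.9 and 41.2 in IMQ libraries, and 168, 201 and 291 in LYS-High libraries. The Fbn1 values of the 3 groups did not overlap, with the LYS-High libraries between the others. The means of Fbn1 were 602 ± 40.8, 75.3 ± 47.7 and 220.0 ± 63.7. Fbn1 fell between IMQ and control (log2 fold change -2.94, standard error 0.41, edgeR adjusted p = 0.000515). In LYS-High against IMQ Fbn1 had 1.55 (standard error 0.45, edgeR adjusted p = 0.0707), and DESeq2 gave 1.54 (DESeq2 adjusted p = 0.00657). LYS-High remained lower than control for Fbn1, at -1.45 (standard error 0.21, edgeR adjusted p = 0.00292). Both calls of Fbn1 against the control group held in 17 of 17 alternative settings. Leaving out IMQ replicate 1 moved Fbn1 to -3.56 in IMQ against control and to 2.19 in LYS-High against IMQ.

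Fbn2 is the fibrillin made most during development. Its CPM was 32.2, 24.8 and 36.1 in control libraries, 2.67, 1.07 and 0.716 in IMQ libraries, and 3.24, 3.97 and 2.85 in LYS-High libraries. The 3 groups of Fbn2 were again separate, but the highest IMQ value and the lowest LYS-High value lay close together. Means of Fbn2 were 31.0 ± 5.73, 1.48 ± 1.04 and 3.35 ± 0.570. The fall of Fbn2 between IMQ and control was the largest of the members (log2 fold change -4.28, standard error 0.40, edgeR adjusted p = 8.5e-05). With limma on log2(FPKM + 1) the Fbn2 fall was not the largest, at -1.72 against -3.29 for Fbn1 and -3.05 for Mfap5. The IMQ values of Fbn2 were 0.189, 0.0667 and 0.0447 FPKM, all below the 1 added in that setting. The value of -1.72 is therefore compressed by the added 1. Against IMQ, LYS-High gave 1.15 for Fbn2 (standard error 0.49, edgeR adjusted p = 0.144). LYS-High against control gave -3.20 for Fbn2 (standard error 0.22, edgeR adjusted p = 0.00023). This was the largest fall of a member in that comparison, and the Fbn2 calls against control also held in 17 of 17 settings. Without IMQ replicate 1 Fbn2 moved to -5.03 in IMQ against control and to 1.90 in LYS-High against IMQ.

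Fbln1 encodes a fibulin found in elastic fibres and basement membranes. Its CPM was 64.1, 83.2 and 70.2 in control libraries, 74.7, 48.7 and 43.0 in IMQ libraries, and 86.3, 107 and 144 in LYS-High libraries. For Fbln1 the IMQ and control values overlapped, through IMQ replicate 1, and every LYS-High value was above all 6 others. Group means of Fbln1 were 72.5 ± 9.77, 55.4 ± 16.9 and 113 ± 29.4. Fbln1 did not pass between IMQ and control (log2 fold change -0.32, standard error 0.21, edgeR adjusted p = 0.215). With 1 library left out this Fbln1 value ranged from -0.579 to -0.151, without passing. With library totals only Fbln1 passed there as lower (-0.75, edgeR adjusted p = 0.027), at a shifted median of all genes, and relative to the medians its values were -0.26 and -0.24. Both limma settings, on FPKM without TMM scaling, also passed Fbln1 as lower (-0.75, limma adjusted p = 0.0187, and -0.80, limma adjusted p = 0.0197). LYS-High against IMQ gave 1.02 for Fbln1 (standard error 0.27, edgeR adjusted p = 0.0643). Fbln1 rose between control and LYS-High (0.64, standard error 0.19, edgeR adjusted p = 0.0381).

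The rise of Fbln1 above control held in 6 of 17 alternative settings. It was lost when control replicate 1 (edgeR adjusted p = 0.164), control replicate 2 (0.0769) or control replicate 3 (0.106) was left out. The Fbln1 call was also lost without LYS-High replicate 2 (edgeR adjusted p = 0.0858) or LYS-High replicate 3 (0.0724). When edgeR was fitted to all 9 libraries together, the adjusted p of Fbln1 was 0.0588. No setting changed the direction of Fbln1 in that comparison.

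Fbln2 encodes a fibulin that binds fibrillin and elastin. Its CPM was 220.2, 273 and 225 in control libraries, 183, 90.4 and 60.0 in IMQ libraries, and 219, 346 and 432 in LYS-High libraries. IMQ values of Fbln2 were below all others, and LYS-High replicate 1 lay just under the lowest control library while the other LYS-High libraries lay above the control range. The means of Fbln2 were 239 ± 29.1, 111 ± 64.2 and 332 ± 107. Fbln2 fell between IMQ and control (log2 fold change -1.04, standard error 0.36, edgeR adjusted p = 0.0351). Its call was lost without control replicate 1 (edgeR adjusted p = 0.067), control replicate 2 (0.0941) or control replicate 3 (0.064). The Fbln2 call was lost likewise without IMQ replicate 2 (edgeR adjusted p = 0.115) or IMQ replicate 3 (0.0613). Of the fits with 1 library left out, only that without IMQ replicate 1 kept the call. The Fbln2 log2 fold change in these fits ranged from -1.59 to -0.727. Over all alternative settings the call held in 12 of 17.

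Fbln2 in LYS-High against IMQ was at 1.58 (log2, standard error 0.44, edgeR adjusted p = 0.0677). DESeq2 gave 1.57 for Fbln2 (DESeq2 adjusted p = 0.00495). Against the control group LYS-High gave 0.47 for Fbln2 (standard error 0.23, edgeR adjusted p = 0.158). Without LYS-High replicate 1 Fbln2 passed as higher than control (0.70, edgeR adjusted p = 0.0129).

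Fbln5 encodes a fibulin that tethers elastin to microfibrils and to integrins. Its CPM was 72.3, 90.7 and 76.5 in control libraries, 49.8, 29.7 and 17.2 in IMQ libraries, and 50.9, 109.5 and 101 in LYS-High libraries. LYS-High replicate 1 of Fbln5 was barely above the highest IMQ library and below every control library, and the other LYS-High libraries were above every control library. Fbln5 means were 79.8 ± 9.65, 32.2 ± 16.5 and 87.1 ± 31.6. Fbln5 fell between IMQ and control (log2 fold change -1.24, standard error 0.33, edgeR adjusted p = 0.0119). LYS-High against IMQ gave 1.43 for Fbln5 (standard error 0.43, edgeR adjusted p = 0.0755) and LYS-High against control gave 0.13 (standard error 0.26, edgeR adjusted p = 0.735). DESeq2 gave 1.42 for Fbln5 in LYS-High against IMQ (DESeq2 adjusted p = 0.011).

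Efemp2 encodes a fibulin that brings lysyl oxidase to elastin. Its CPM was 51.1, 60.3 and 43.6 in control libraries, 27.4, 16.5 and 13.9 in IMQ libraries, and 43.0, 52.4 and 51.1 in LYS-High libraries. All IMQ values of Efemp2 were the lowest, and LYS-High and control values lay in the same range. Efemp2 had means of 51.7 ± 8.34, 19.3 ± 7.16 and 48.8 ± 5.10. Its fall between IMQ and control was past the test (log2 fold change -1.36, standard error 0.25, edgeR adjusted p = 0.00223). In LYS-High against IMQ Efemp2 reached the smallest edgeR adjusted p of the comparison, 0.0591, together with Mfap5 and others, at 1.34 (standard error 0.26). DESeq2 gave 1.33 for Efemp2 (DESeq2 adjusted p = 0.000292). Against control, LYS-High gave -0.07 for Efemp2 (standard error 0.15, edgeR adjusted p = 0.734).

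Mfap2 encodes a small glycoprotein bound to fibrillin. Its CPM was 48.8, 65.3 and 58.1 in control libraries, 23.2, 11.5 and 10.4 in IMQ libraries, and 18.4, 39.8 and 53.9 in LYS-High libraries. LYS-High replicate 1 of Mfap2 lay among the IMQ values, and LYS-High replicate 3 lay among the control values. Means of Mfap2 were 57.4 ± 8.24, 15.0 ± 7.10 and 37.4 ± 17.9. Mfap2 fell between IMQ and control (log2 fold change -1.87, standard error 0.30, edgeR adjusted p = 0.00105). LYS-High against IMQ gave 1.31 for Mfap2 (standard error 0.46, edgeR adjusted p = 0.0952), and LYS-High against control gave -0.62 (standard error 0.33, edgeR adjusted p = 0.18). Without LYS-High replicate 3 Mfap2 passed as lower than control (-0.95, edgeR adjusted p = 0.0462).

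Mfap4 encodes a fibrinogen-like protein of elastic fibres. Its CPM was 121, 150.3 and 134 in control libraries, 68.6, 29.7 and 22.7 in IMQ libraries, and 39.2, 70.0 and 141 in LYS-High libraries. The LYS-High values of Mfap4 ran from within the IMQ range to within the control range. Mfap4 means were 135 ± 14.5, 40.3 ± 24.7 and 83.5 ± 52.4. Mfap4 fell between IMQ and control (log2 fold change -1.68, standard error 0.37, edgeR adjusted p = 0.00502), with -2.29 when IMQ replicate 1 was left out. LYS-High against IMQ gave 1.05 for Mfap4 (standard error 0.56, edgeR adjusted p = 0.219), the largest adjusted p of the members, and it passed in 0 of 17 alternative settings. Leaving out 1 library moved this Mfap4 value between 0.44 (without LYS-High replicate 3) and 1.67 (without IMQ replicate 1). Against control, LYS-High gave -0.70 for Mfap4 (standard error 0.39, edgeR adjusted p = 0.199), and without LYS-High replicate 3 Mfap4 passed as lower (-1.28, edgeR adjusted p = 0.00775).

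Mfap5 encodes a glycoprotein that binds fibrillin and Notch ligands. Its CPM was 110.3, 119.9 and 83.4 in control libraries, 10.97, 14.7 and 12.5 in IMQ libraries, and 22.5, 39.7 and 62.5 in LYS-High libraries. The 3 groups of Mfap5 did not overlap, and its IMQ libraries lay close together. Mfap5 had means of 105 ± 18.9, 12.7 ± 1.89 and 41.6 ± 20.1. Mfap5 fell between IMQ and control with the smallest adjusted p of the members (log2 fold change -2.98, standard error 0.18, edgeR adjusted p = 1.6e-05). The largest member value in LYS-High against IMQ was that of Mfap5, 1.71 (standard error 0.36, edgeR adjusted p = 0.0591). DESeq2 gave 1.69 for Mfap5 there (DESeq2 adjusted p = 0.000525). Mfap5 stayed lower than control in LYS-High (-1.33, standard error 0.32, edgeR adjusted p = 0.0188).

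The Mfap5 call in LYS-High against control was lost when control replicate 1 (edgeR adjusted p = 0.077) or control replicate 2 (0.0772) was left out. Without LYS-High replicate 2 Mfap5 was lost as well (edgeR adjusted p = 0.0685). Its fall between IMQ and control held in all settings.

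Members were also compared with each other by the shape of their values over the 9 libraries. The measure was the root mean square difference of log2(CPM + 1) after each gene was centred on its own mean, so that a small value means like shapes. Mfap2 and Mfap4 were the closest members (0.200), followed by Fbln2 and Fbln5 (0.203). Efemp2 was nearest to Fbln5 (0.272), and Eln was nearest to Fbln5 (0.398). Fbln1 was nearest to Fbln2 (0.415). Fbn1 and Mfap5 were nearest to each other (0.517), and Fbn2 was nearest to Fbn1 (0.646). The farthest pair was Fbn2 and Fbln1 (1.64). The median distance to all 15043 compared genes was 0.933 for Eln and 1.35 for Fbn1.

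Among all 15043 genes the 5 nearest to Eln were Myh11 (0.233), Smarcd3 (0.235), Cytl1 (0.249), Jph2 (0.262) and Atp2a1 (0.265). Myh11 encodes a smooth muscle myosin, and Jph2 and Atp2a1 encode muscle calcium-handling proteins. With log2(CPM + 0.1) these 3 muscle genes left the nearest 5 of Eln, which were then Smarcd3, Mmp17, Zic4, Cytl1 and Plcl1. The 3 muscle genes stayed in the nearest 5 with library totals only and with log2(FPKM + 1). The 5 nearest to Fbn1 were Sypl2 (0.142), Col6a1 (0.146), Col6a2 (0.185), Dpysl3 (0.198) and Loxl2 (0.198). Col6a1 and Col6a2 encode chains of collagen VI, and Loxl2 encodes a lysyl oxidase. With log2(CPM + 0.1) Col6a2 and Loxl2 left the nearest 5 of Fbn1, and Mme and Nid2 entered. Neither list was tested for a shared function.

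Markers of dermal and other cell types moved in the same comparisons as the members. Of 12 fibroblast markers 10 were lower and 1 (Crabp1) higher between IMQ and control, with a median log2 fold change of -1.82 against -1.52 for the members. The markers' summed FPKM was 3521, 4294 and 4093 in the control group, 1339.6, 545 and 424 in the IMQ group, and 1301, 2157 and 2780 in the LYS-High group, with Col1a1 the most abundant and 0 markers at 0. In LYS-High against IMQ 11 of 12 fibroblast markers had a positive value (median 1.16, members 1.33), and against control 4 were lower and 1 higher (median -0.68, members -0.42). Their part in the result was not tested. In bulk RNA, fewer cells of a type and less RNA per cell cannot be told apart.

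The members were also expressed relative to the fibroblast markers, as log2(CPM + 1) minus the mean of the 12 markers in the same library. This scale cannot tell fewer cells from less RNA per cell either, because the markers come from the same bulk RNA. Because the markers themselves were lower in IMQ, most genes were higher on this scale: 84.1% of all tested genes were higher without overlap and 3.29% lower. On this scale Fbn1 was lower in the IMQ group than in the control group (-1.51), without overlap of the groups. Fbn2 (-2.11) and Mfap5 (-1.29) were also lower without overlap, which made 3 of 10 members lower. Fbln1 was higher without overlap (1.23), as was Efemp2 (0.22), so 2 of 10 members shared the direction of most genes. Eln (0.02), Fbln2 (0.40), Fbln5 (0.24), Mfap2 (-0.30) and Mfap4 (-0.23) had overlapping IMQ and control values. With log2(CPM + 0.1) Fbln2 was higher there without overlap (0.42).

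Between LYS-High and IMQ the relative values of Fbn1 (0.57) and Fbln2 (0.56) were higher without overlap, against 0.828% of all tested genes. The other 8 members overlapped and 0 were lower, while 60.1% of all tested genes were lower without overlap, as the markers themselves had higher values in LYS-High. The other differences were 0.27 for Eln, -0.22 for Fbn2, -0.09 for Fbln1, 0.35 for Fbln5, 0.24 for Efemp2, 0.12 for Mfap2, -0.10 for Mfap4 and 0.42 for Mfap5. With the median of the markers in place of their mean, all 10 members overlapped between LYS-High and IMQ, while 80.9% of all tested genes were lower without overlap and 0.0906% higher. The differences were then 0.31 for Fbn1, 0.30 for Fbln2, 0.0088 for Eln, -0.49 for Fbn2, -0.35 for Fbln1 and 0.09 for Fbln5. They were -0.02 for Efemp2, -0.14 for Mfap2, -0.36 for Mfap4 and 0.16 for Mfap5, so Efemp2 and Mfap2 changed sign. With log2(CPM + 0.1) Fbn2 changed sign (0.18) and Fbn1 overlapped (0.56).

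Between LYS-High and control, Fbn1 (-0.94), Fbn2 (-2.33) and Mfap5 (-0.87) were lower relative to the markers without overlap, as were 5.59% of all tested genes. Fbln1 (1.14), Fbln2 (0.96), Fbln5 (0.60) and Efemp2 (0.47) were higher without overlap, as were 46.4% of all tested genes, a share close to that of the members. Eln (0.29), Mfap2 (-0.18) and Mfap4 (-0.33) overlapped there. With the median of the markers Fbln5 (0.36) and Efemp2 (0.23) overlapped the control group as well, and Mfap4 (-0.57) was lower without overlap. That left 4 of 10 members lower, against 7.20% of all tested genes, and 2 of 10 higher, against 13.9%. The placement of Fbn1, Fbn2, Mfap5, Fbln1 and Fbln2 against control in LYS-High was the same in that setting.

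**Figure D3:**
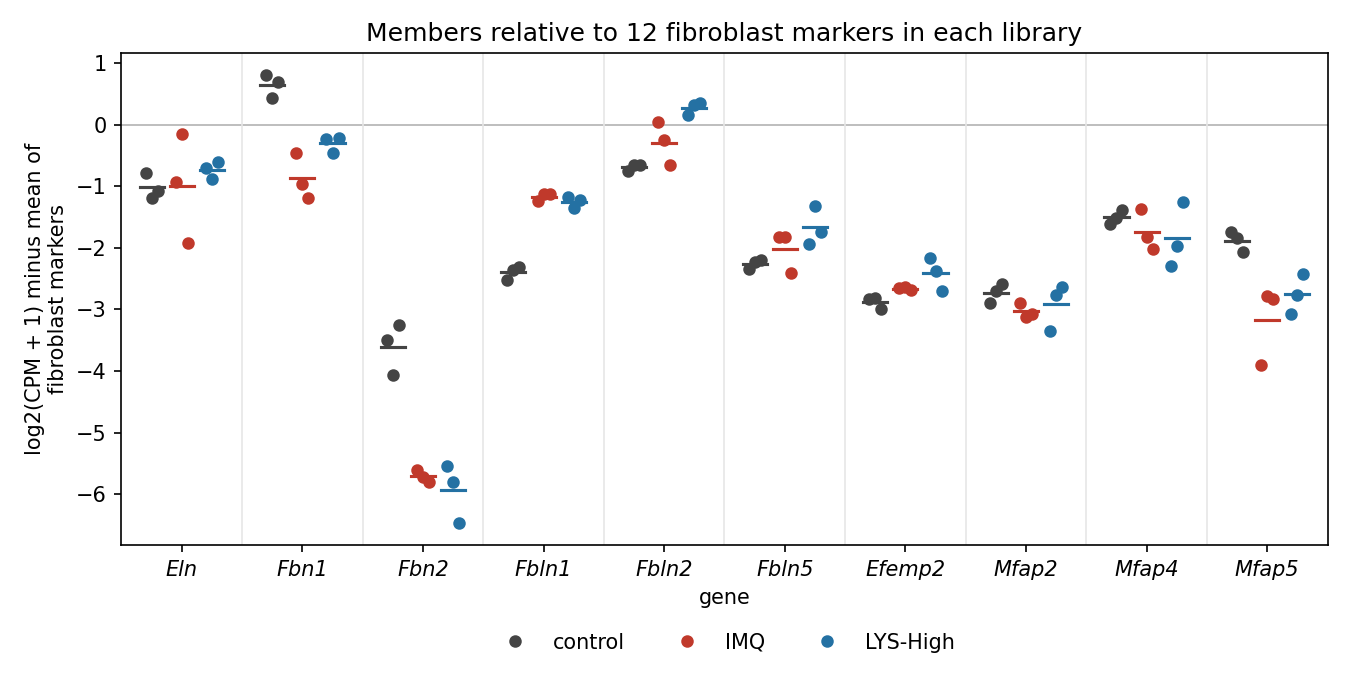
Each member's log2(CPM + 1) minus the mean log2(CPM + 1) of 12 fibroblast markers in the same library, by group, with a bar at the group mean. Fbn1, Fbn2 and Mfap5 lie lower, and Fbln1 and Efemp2 higher, in both cream-treated groups than in the control group, without overlap.

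Assembly partners of the members were counted on a list of 26 genes. Between IMQ and control 19 of 26 were lower and 1 higher (median -1.15, members -1.52). Lower were 5 of 5 lysyl oxidases, which crosslink elastin, 3 of 4 latent TGF-beta binding proteins, 3 of 4 other fibulin-family genes, 4 of 6 fibrillin-binding ADAMTS or ADAMTS-like genes, 3 of 3 scaffold genes and 1 of 3 EMILINs. In LYS-High against IMQ 23 of 26 partners were positive (median 1.16, members 1.33). There edgeR called 0 partners, DESeq2 called 16 higher and 1 lower, and edgeR on all 9 libraries together called 15 higher and 1 lower. Without LYS-High replicate 1 edgeR called 17 partners higher and 1 lower, beside 7 members. Against control, LYS-High had 5 of 25 tested partners lower and 3 higher (median -0.11, members -0.42), and Emilin3 was not tested.

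The most abundant partners of each role are given beside the members. Efemp1, a close relative of Efemp2, was lower in IMQ (log2 fold change -2.32, edgeR adjusted p = 0.00017), with 1.76 in LYS-High against IMQ (edgeR adjusted p = 0.0591) and -0.62 against control (0.061). Loxl1, which crosslinks elastin with the help of Fbln5, had -1.86 (edgeR adjusted p = 0.000521), 1.88 (0.0591) and -0.05 (0.899) in the same order. Lox, which Efemp2 binds, had -1.77 (edgeR adjusted p = 0.000851), 1.38 (0.0782) and -0.46 (0.281). Fn1, on which fibrillin microfibrils assemble, had -2.08 (edgeR adjusted p = 0.000245), 1.43 (0.0813) and -0.72 (0.164). Hspg2, a heparan sulfate proteoglycan that binds fibrillin, had -0.94 (edgeR adjusted p = 0.0307), 1.14 (0.0874) and 0.14 (0.615). Ltbp4, which binds Fbln5, had log2 fold changes of -0.98, 0.82 and -0.22, and Ltbp3 had -1.59, 1.03 and -0.62. Emilin1, which lies between elastin and microfibrils, had -1.51, 1.67 and 0.11, and Emilin2 had -0.58, 1.03 and 0.39. Other values were -0.35, 1.66 and 1.25 for Hmcn2, -0.54, 0.58 and -0.02 for Adamtsl5, -0.65, 1.08 and 0.36 for Adamtsl4, and 1.34, -0.47 and 0.82 for Atp7a, which supplies copper to lysyl oxidases.

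Receptors that bind the members' proteins, elastin-degrading proteases, their inhibitors and TGF-beta ligands were counted as well. Of 9 receptor genes 5 were lower and 1 higher in IMQ (median -0.82), 7 of 9 were positive in LYS-High against IMQ (median 0.71), and against control 0 were lower and 1 higher (median 0.08). Itgb1, an integrin chain that binds Fbn1 and Fbln5 proteins, had log2 fold changes of -1.41, 1.03 and -0.44, Itga5 -0.99, 1.12 and 0.08, Itgb5 0.32, 0.24 and 0.50, and Ctsa 1.81, -0.73 and 1.03. Of 10 elastase genes 7 were tested (not Mmp7, Elane or Ctsg), with 1 lower and 2 higher in IMQ (median -0.28, against -1.35 for Eln). For the elastases the LYS-High medians were 0.92 against IMQ, with 5 of 7 positive, and 0.65 against control, with 0 lower and 2 higher. Ctsk had -0.03, 0.92 and 0.83, Mmp2 -0.63, 1.50 and 0.81, Ctss -0.28, 1.001 and 0.65, and Ctsl 1.16, -0.49 and 0.62. Of 5 inhibitor genes 3 were lower and 1 higher in IMQ (median -0.72), 3 of 5 were positive against IMQ (median 0.99), and 0 were lower and 1 higher against control (median 0.21). Cst3 had 0.26, -0.05 and 0.15, Timp2 -0.72, 0.99 and 0.21, Slpi 7.08, -0.99 and 6.05, and Timp3 -2.28, 1.25 and -1.10. TGF-beta ligands, which the fibrillins hold in latent form, had 2 of 3 lower in IMQ (median -1.13), 3 of 3 positive against IMQ (median 0.98), and 0 lower and 1 higher against control (median -0.26). Their log2 fold changes were -0.08, 0.98 and 0.85 for Tgfb1, -1.13, 0.93 and -0.26 for Tgfb2, and -1.56, 1.19 and -0.44 for Tgfb3.

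Markers of the other sources of elastic fibre genes, smooth muscle and endothelium, were counted beside the members. Smooth muscle and pericyte markers had 2 of 7 lower and 1 higher in IMQ (median -0.77), 6 of 7 positive in LYS-High against IMQ (median 1.12), and 1 of 8 lower and 2 higher against control (median 0.14). Summed FPKM of these markers was 186, 177 and 184 in control, 104, 77.9 and 54.2 in IMQ, and 113, 170.1 and 198 in LYS-High libraries, with Acta2 the most abundant. Without Acta2 and Rgs5 the sum was 45.4, 45.0 and 49.1 in control, 42.5, 40.1 and 28.7 in IMQ, and 49.7, 64.1 and 69.8 in LYS-High libraries. Endothelial markers had 5 of 8 lower in IMQ (median -0.98), 8 of 8 positive against IMQ (median 1.16) and 1 of 8 higher against control (median 0.07). The endothelial sum in FPKM was 117, 126 and 95.6, then 64.9, 34.2 and 27.2, then 66.1, 126 and 146, with Pecam1 the most abundant.

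Markers of keratinocytes, which are outside the dermis where most members are made, had 8 of 8 higher in IMQ (median 2.24), 0 of 8 positive against IMQ (median -0.52) and 6 of 8 higher against control (median 1.53). Keratinocyte sums in FPKM were 2608, 2318 and 4221 in control, 13478, 14518 and 15248 in IMQ, and 12345, 7765 and 7903 in LYS-High libraries, with Krt14 the most abundant. Leukocyte markers had 4 of 8 higher in IMQ (median 0.67), 6 of 8 positive against IMQ (median 0.82) and 5 of 8 higher against control (median 1.54). Leukocyte sums were 191, 135 and 229, then 32455, 37860.2 and 38606, then 28429.9, 28833 and 10908, with S100a9 the most abundant. S100a9 and S100a8 made up most of the IMQ and LYS-High sums. The other 6 leukocyte markers summed to 159, 110.2 and 101 in control, 95.9, 99.7 and 84.7 in IMQ, and 160.3, 275 and 301 in LYS-High libraries.

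Hair follicle, skeletal muscle and adipocyte markers were lower together with the members. Hair follicle markers had 7 of 7 lower in IMQ (median -9.42, with 2 genes at the floor of 3 counts and the same median when these are set to their bound) and 7 of 7 lower against control (median -9.65 with 3 such genes at their bound). Only 3 were tested against IMQ (median 0.83). In summed FPKM the hair follicle markers had 1684, 1036 and 2436 in control, 6.13, 5.03 and 4.13 in IMQ, and 6.28, 6.10 and 2.99 in LYS-High libraries, with Krt71 the most abundant and Krt25, Krt71 and Krt35 at 0 in some libraries. Skeletal muscle markers had 6 of 7 lower in IMQ (median -1.53), 6 of 7 positive against IMQ (median 0.77) and 5 of 7 lower against control (median -1.10). Muscle sums in FPKM were 5647, 5706 and 5384, then 1876, 1454 and 695, then 2025, 2518 and 3729, with Acta1 the most abundant. Adipocyte markers had 8 of 8 lower in IMQ (median -3.11), 8 of 8 positive against IMQ (median 1.55) and 7 of 8 lower against control (median -1.64). Their summed FPKM was 5307, 7357 and 3505, then 812, 384 and 291, then 909.7, 1444 and 2420.3, with Cfd the most abundant. The part of these cell types in the members' values was not tested.

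Counts of the lists also moved with the tool and the scaling, as those of the members did. In LYS-High against IMQ edgeR called 0 genes of any list, while DESeq2 called 7 of 12 fibroblast markers, 6 of 8 endothelial, 5 of 8 adipocyte, 2 of 7 smooth muscle and pericyte, and 0 of 7 skeletal muscle markers higher, beside 7 members. DESeq2 also called 3 of 8 keratinocyte markers lower, 4 of 8 leukocyte markers higher and 1 lower, and 0 of 3 hair follicle markers. Among the other lists DESeq2 called 4 receptors higher and 1 lower, 4 elastases, 2 inhibitors and 2 TGF-beta ligands higher.

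With library totals only, at the shifted median of all genes, edgeR called 10 of 10 members lower in IMQ against control, against 42.9% of all tested genes. Partners were then 22 lower and 1 higher, receptors 5 and 1, elastases 3 and 2, inhibitors 3 and 1, and TGF-beta ligands 2 and 0. Fibroblast markers were 11 lower and 0 higher, smooth muscle and pericyte markers 5 and 1, endothelial markers 7 and 0, keratinocyte markers 0 and 7, and leukocyte markers 2 and 3. Hair follicle, skeletal muscle and adipocyte counts stayed at 7, 6 and 8 lower. In LYS-High against control with library totals, 3 members were lower (16.9% of all tested genes) and 0 higher (1917 of 16003 tested genes). Partners were then 6 and 2, elastases 1 and 1, fibroblast markers 5 and 1, endothelial markers 0 and 0, and keratinocyte markers 0 and 5. Counts of the other lists in that comparison stayed the same.

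The members are spread over the genome. On GRCm38 Eln lies at chr5:134702593-134747323 on the minus strand, with 36 merged exons and 8098 exon bases. Fbn1 lies at chr2:125300594-125507993 on the minus strand, with 65 merged exons and 12128 exon bases. Fbn2 lies at chr18:58008623-58210487 on the minus strand, with 67 merged exons and 13215 exon bases, the longest of the members. Fbln1 lies at chr15:85205949-85286535 (plus), Fbln2 at chr6:91212455-91272540 (plus), Fbln5 at chr12:101746565-101819055 (minus) and Efemp2 at chr19:5473954-5482517 (plus). Mfap2, the shortest by exon bases (1211), lies at chr4:141010418-141015984 (plus), Mfap4 at chr11:61485431-61488900 (plus) and Mfap5 at chr6:122505845-122529290 (plus). Fbln2 and Mfap5 thus share chromosome 6. The length behind the deposited FPKM equalled the GENCODE M21 exon length for 10 of 10 members.

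Exons of 5 members shared bases with a gene on the opposite strand. Without strand information, reads there cannot be told apart. The strand setting of the counting is not given, so the counts below do not show how many reads on shared bases were affected. Mus81 shared 173 bases with Efemp2 and had 2024 counts over all libraries against 6487 for Efemp2. Mapk7 shared 89 bases with Mfap4 and had 3614 counts against 14433 for Mfap4. Gm9913 shared 2442 of the 12128 exon bases of Fbn1 and had 13 counts against 51596 for Fbn1. Gm30003 shared 267 bases with Eln and had 5 counts against 23149, and Gm26507 shared 129 bases with Fbn2.

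Promoter windows of 300 bases, 250 before and 50 after the start, were available for 6 of the 10 members in the table used, with 11 windows in all, from GRCm38.p6 with RefSeq annotation. Eln, Fbn2, Mfap4 and Mfap5 had no entry. The motif TATAAA (the TATA box), read on both strands, was in 0 of 11 member windows and in 13.6% of all 32851 windows. The motif GGGCGG (the GC box), read on both strands, was in 8 of 11 member windows and in 35.7% of all windows. The motif TGANTCA (the AP-1 element, N any base), read on both strands, was in 0 of 11 member windows and in 7.81% of all. Windows of Fbln1, Efemp2 and Mfap2 overlapped in part where a gene had several starts, so the 11 windows are not independent. A match describes the sequence and does not show binding.

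The printed windows belong to a fibrillin, a fibulin and a microfibril-associated protein, with motif matches in capitals. The Fbn1 window is chr2:125506389-125506688 on the minus strand (GRCm38), with 60.3% G or C against a median of 52.7% over all windows and 1 GGGCGG match. The Fbln2 window is chr6:91212514-91212813 on the plus strand (GRCm38), with 60.3% G or C and 2 GGGCGG matches. The first Mfap2 window is chr4:141010431-141010730 on the plus strand (GRCm38), with 68% G or C and 2 GGGCGG matches.
Fbn1: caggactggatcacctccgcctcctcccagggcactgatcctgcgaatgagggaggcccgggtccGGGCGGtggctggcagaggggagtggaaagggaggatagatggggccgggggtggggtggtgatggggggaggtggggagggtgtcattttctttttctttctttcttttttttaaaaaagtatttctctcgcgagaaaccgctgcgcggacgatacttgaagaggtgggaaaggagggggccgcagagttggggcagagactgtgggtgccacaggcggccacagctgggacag
Fbln2: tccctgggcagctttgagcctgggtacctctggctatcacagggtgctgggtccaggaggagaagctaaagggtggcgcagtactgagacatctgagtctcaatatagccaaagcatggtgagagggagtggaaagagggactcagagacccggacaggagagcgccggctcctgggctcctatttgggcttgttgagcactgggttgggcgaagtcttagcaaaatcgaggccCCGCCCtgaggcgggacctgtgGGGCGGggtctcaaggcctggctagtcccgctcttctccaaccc
Mfap2: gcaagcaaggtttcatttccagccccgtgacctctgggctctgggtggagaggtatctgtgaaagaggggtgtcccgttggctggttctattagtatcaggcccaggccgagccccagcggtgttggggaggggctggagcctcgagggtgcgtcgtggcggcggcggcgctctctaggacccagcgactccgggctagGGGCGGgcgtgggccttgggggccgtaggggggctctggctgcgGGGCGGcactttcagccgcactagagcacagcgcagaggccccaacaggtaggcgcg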

How the data were processed

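The data are 9 bulk RNA libraries of mouse back skin, 3 each for control, IMQ and LYS-High. The authors deposited unscaled counts for 29205 Ensembl genes. The deposited FPKM of each gene equalled its count per kilobase of a fixed length and per summed counts on the usual scale, and that length was the GENCODE M21 exon length for 98.4% of the 29107 genes compared. The submitters' processing notes name HISAT2, HTSeq 0.13.5 and GRCm38. The annotation release and the strand setting of the counting are not given in the sources used here. The NEBNext Ultra kit named in the labels does not mark the strand, so reads from overlapping antisense genes cannot be told apart. Depth was 17149506 to 19609878 counts for control, 16915191 to 17988104 for IMQ and 14658645 to 16743869 for LYS-High. Between libraries of the same group a chi-square comparison of counts gave 18.4 to 109 per degree of freedom, so the spread was far above counting error.

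The 6 libraries of each comparison were fitted with edgeR 4.0.16 (R 4.3.3). Low counts were removed by filterByExpr, libraries were scaled by TMM, and genes were tested by quasi-likelihood with Benjamini-Hochberg adjustment over all tested genes. A call needed an adjusted p below 0.05 and a log2 fold change beyond 0.58 in either direction. Standard errors were taken from the log2 fold change and the F statistic. CPM used TMM scaling over all 9 libraries. The floor was 3 counts: where no library of a group exceeded it, the change is a bound. Likeness between genes was the root mean square difference of centred log2(CPM + 1) over 15043 genes. Relative values were log2(CPM + 1) minus the mean of 12 fibroblast markers. DESeq2 1.42.0 and limma 3.58.1 were used as alternatives, and the procedure was tested on simulated data made from these libraries. Python 3.11.15 and matplotlib 3.10.9 made the figures.

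The alternatives changed the tool, the scaling, the low-count filter, the fold threshold, the libraries in the fit, the unit and pseudocount (0.1 in place of 1), added the replicate number as a block, or left out 1 library at a time. DESeq2 with all 9 libraries was added after the data had been seen. Correlations between libraries with the same replicate number did not show pairing. The members and the gene lists (partners, receptors, elastases, inhibitors, TGF-beta ligands, and markers of fibroblasts, smooth muscle and pericytes, endothelium, keratinocytes, hair follicle, skeletal muscle, adipocytes and leukocytes) were chosen with earlier results of these data known. No gene was in more than 1 list. Named list genes were the 2 most abundant of each partner role and the 4 most abundant of each other functional list, by mean FPKM over the 9 libraries. The most abundant gene was named for each marker list, and the others were counted. Promoter windows were read from a RefSeq table (GRCm38.p6).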

Additional observations from a re-analysis of the deposited data

How the results depend on the processing

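In LYS-High against IMQ the genes called were 0 in edgeR on 6 libraries. They were 3392 with DESeq2 (7 members), 3040 when edgeR was fitted to all 9 libraries together (7 members), 2419 without the low-count filter (7 members) and 4077 with DESeq2 on all 9 libraries (9 members), a setting chosen after seeing the data. Leaving out 1 library gave 0 to 4262 genes and 0 to 7 members there, with 1873 genes and 6 members without IMQ replicate 1, 4262 and 7 without LYS-High replicate 1, and 0 for the others. In IMQ against control leaving out 1 library gave 7372 of 16298 to 8894 of 16401 tested genes and 7 to 9 of 10 members. In LYS-High against control it gave 2579 of 16318 to 5072 of 16447 tested genes and 2 to 5 of 10 members. With 2 of 10 members, 2579 of 16318 genes were called without control replicate 1 and 2947 of 16394 without control replicate 2. Without LYS-High replicate 2, 2926 of 16378 genes and 2 of 10 members were called. In these fits with 2 members, the share of all genes called was near that of the members. A log2 fold change over 1 gave 2910 genes in that comparison. The cause was not tested.

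Log2 fold changes of members changed sign only in LYS-High against control, for Fbln5 and Efemp2. Fbln5 (0.13) was -0.0639 with limma on log2(FPKM + 1), -0.0753 on log2(FPKM + 0.1) and -0.0673 without LYS-High replicate 2, and with 1 library left out it ranged from -0.0673 to 0.396. Efemp2 (-0.07) was 0.0308 without control replicate 2 and 0.00065 without LYS-High replicate 1, in a range from -0.183 to 0.0308. With log2(CPM + 0.1), 2 of the 5 genes nearest Eln and 3 of the 5 nearest Fbn1 were kept, and 3 of 5 for Fbn1 with log2(FPKM + 1). Relative to the fibroblast markers, signs changed in LYS-High minus IMQ for Fbn2 (-0.22, then 0.18 with log2(CPM + 0.1)), Mfap2 (0.12, then -0.14 with the median of the markers) and Efemp2 (0.24, then -0.02 with that median). Fbn2 relative to the markers in IMQ minus control was -2.80 with log2(CPM + 0.1) and -2.11 with log2(CPM + 1). The Fbln1 call in LYS-High against control was lost in 11 of 17 settings, among them library totals (edgeR adjusted p = 0.104) and both limma settings (0.129). With library totals only, genes called in LYS-High against control were 1917 higher and 2706 lower in place of 2412 and 2064.

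With the replicate number as a block, 8044 of 15976 tested genes and 9 of 10 members were called in IMQ against control. In LYS-High against IMQ it was 0 of 15460 genes and 0 members. In LYS-High against control it was 3126 of 16003 genes and 3 of 10 members. Fbln1 was not called in the last (edgeR adjusted p = 0.0687). The labels do not pair libraries with the same number. Correlations of such libraries were 0.0101, -0.0633 and 0.219 in IMQ against control. They were -0.478, 0.0764 and -0.433 in LYS-High against IMQ, and -0.129, 0.0158 and -0.404 in LYS-High against control. So few correlations cannot exclude a shared batch.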
